A study of Mus musculus with 12 samples.

Results

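This account describes how the effect of a collagen mutation on the corneal endothelium changed from an early to a late stage in the mouse, over 12 of the 12 libraries of the series. The quantity is an interaction, the genotype effect late (mutant over wild type) minus the genotype effect early, on the log2 scale. Messenger RNA was sequenced from the corneal endothelium of mice homozygous for Col8a2 Q455K and of wild-type mice, as paired-end reads. The 4 groups were early wild type and early mutant, at an age of up to 2 months, and late wild type and late mutant, from 8 months, each with 3 biological replicates. The strain, the sex and the number of animals pooled in a library, if any were, were not stated. A shift between stages that is common to both genotypes cancels in the interaction. All early libraries were batch 1 and all late libraries batch 2, so an effect of batch that differed between genotypes cannot be told apart from an effect of stage that did.

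The corneal endothelium is a single layer of cells on the inner face of the cornea that moves water from the tissue and so keeps it clear. The layer rests on Descemet membrane, a thick basement membrane in which collagen VIII, built from the chains of Col8a1 and Col8a2, forms a lattice. Changes in Col8a2 cause an early-onset form of Fuchs endothelial corneal dystrophy, in which deposits form in Descemet membrane and endothelial cells are lost with age. In bulk RNA, fewer cells of a type and less RNA per cell cannot be told apart.

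Total counts ran from 19722598 to 39431676 per library, and 17965 of 32761 genes passed the low-count filter. All 19 corneal endothelium markers of the list used had counts in every library, with a summed level of 42829 to 115191 CPM (counts scaled to library size with TMM factors). Col8a2 read 1740, 605 and 1180 CPM in early wild type and 949, 1050 and 811 in early mutant. In late wild type it read 1210, 835 and 771 CPM, and in late mutant 793, 1060 and 813. Its groups overlapped at both stages, with an interaction of 0.25 ± 0.45 (SE) on the log2 scale. The knock-in changes 1 amino acid, so the level of this transcript does not check the genotype labels. Late wild-type libraries differed among themselves. On the first principal component (37.2% of the variance) replicates 2 and 3 lay at -53.9 and -48.9 and replicate 1 at 3, while early wild type lay between -26.1 and -1 and the mutant libraries between 8.5 and 32.9. Early wild-type replicate 2 stood apart in lens markers (715.9 CPM summed, against 154.3 and 207.3 in the other two). A list of 20 nuclear-retained and host-gene RNAs, read here as a sign of RNA quality, summed to 49824, 24774 and 39242 CPM in early wild type and 19874 to 24401 in early mutant. Late, it summed to 26444, 53241 and 49167 CPM in wild type and 17420 to 22251 in mutant, so the sum was lower in mutants at both stages without overlap. The median log2 fold change of its 20 members was -0.24 early and 0.15 late, with 13 of the 20 above 0 late, so most members did not follow the sum late. Its part in the results was not tested. P-values measure the spread between these libraries.

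The genotype effect differed between stages for 1 gene, Isoc1, at an adjusted p under 0.05 (edgeR's quasi-likelihood test with Benjamini-Hochberg adjustment), 0.00557% of the genes tested. At an adjusted p under 0.1 there were 31 genes (0.173%), 13 with a higher effect late (0.0724%) and 18 with a lower one (0.1%). At an unadjusted p under 0.05 there were 2013 (11.2%), 1100 higher and 913 lower. Other tools gave other counts. DESeq2's Wald test called 327 genes and limma-voom with sample weights 91, while edgeR with DESeq2's size factors called 0, with 2049 genes at an unadjusted p under 0.05. The median standard error of the interaction was 0.45 on the log2 scale over the 10235 genes of at least 5 CPM in 1 group, with quartiles of 0.40 and 0.53.

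The count depended on the libraries, as the bars of calls with each library left out show. Without late wild-type replicate 1 the interaction was called for 199 of 19241 genes (1.03%), 67 higher late (0.348%) and 132 lower late (0.686%). All 199 had the same sign with every library included, and 193 had an unadjusted p under 0.05 there. Without early wild-type replicate 1 the test called 28 genes. Leaving out early mutant replicate 1 gave 1 call, and leaving out any other library gave 0, with 1603 to 2193 genes at an unadjusted p under 0.05. With late wild-type replicate 1 and early wild-type replicate 2 both left out it called 86.

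**Figure D1:**
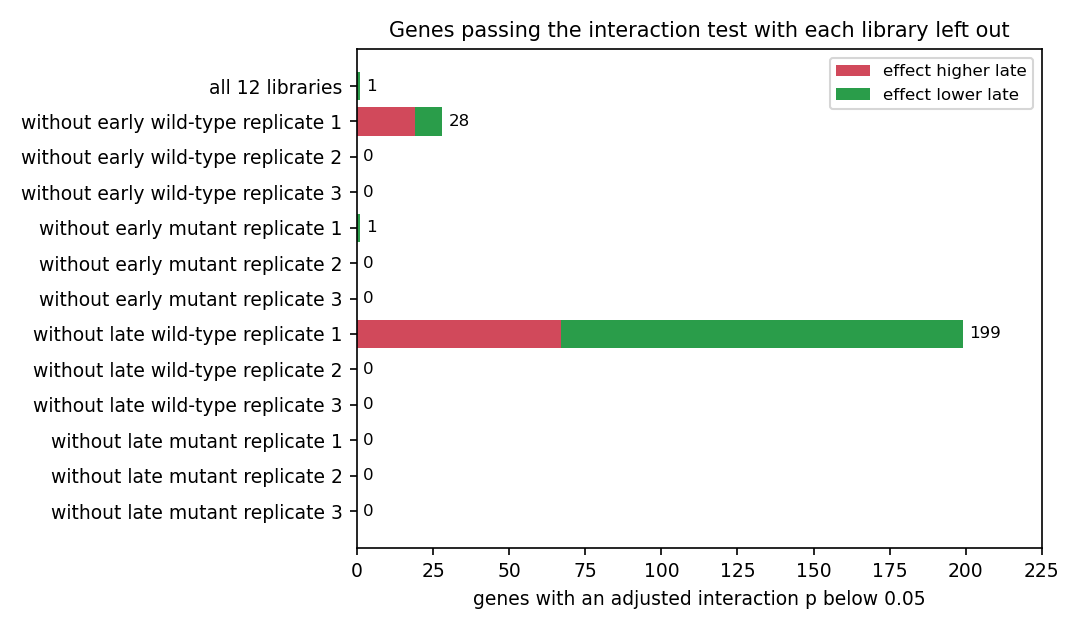
Number of genes with an adjusted interaction p under 0.05 (horizontal axis, genes) with all 12 libraries and with each library left out in turn (vertical axis). Red parts count genes with a higher genotype effect late and green parts genes with a lower one. The bar without late wild-type replicate 1 reaches 199 genes and that without early wild-type replicate 1 reaches 28, against 0 or 1 elsewhere.

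Each gene was put in a class from its early and late log2 fold changes. A gene turned round where the signs were opposite and both sizes were at least 0.5, and otherwise grew or faded as the late size was above or below the early one. Over all genes tested 57.33% grew, 31.45% faded and 11.22% turned round, and over the genes of at least 5 CPM the shares were 67.31%, 29.43% and 3.263%. Among the 2013 genes with an unadjusted interaction p under 0.05, 1001 turned round, 950 grew and 62 faded. Of the 1001, 789 had a higher effect late and 212 a lower one. Among genes of at least 5 CPM, whatever their p, 149 turned round with a higher effect late and 185 with a lower one. Most of the 789 were therefore below 5 CPM. These classes describe point estimates. In 2009 of the 2013 the wild-type and mutant levels moved in opposite directions from early to late. The mutant moved further in 1323 of the 2013 and the wild type in 690. Whether the deposited counts were adjusted between batches was not stated. In counts with the shift between batches removed, an interaction would by itself appear as opposite moves. The opposite moves are therefore no finding apart from the interaction. No gene was called at both stages with opposite signs. In 200 genes (1.11% of those tested) the libraries of the 2 genotypes did not overlap at either stage and lay in opposite order, 109 with a lower and 91 with a higher effect late. Of those at 5 CPM or more, 105 were lower late and 15 higher.

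**Figure D2:**
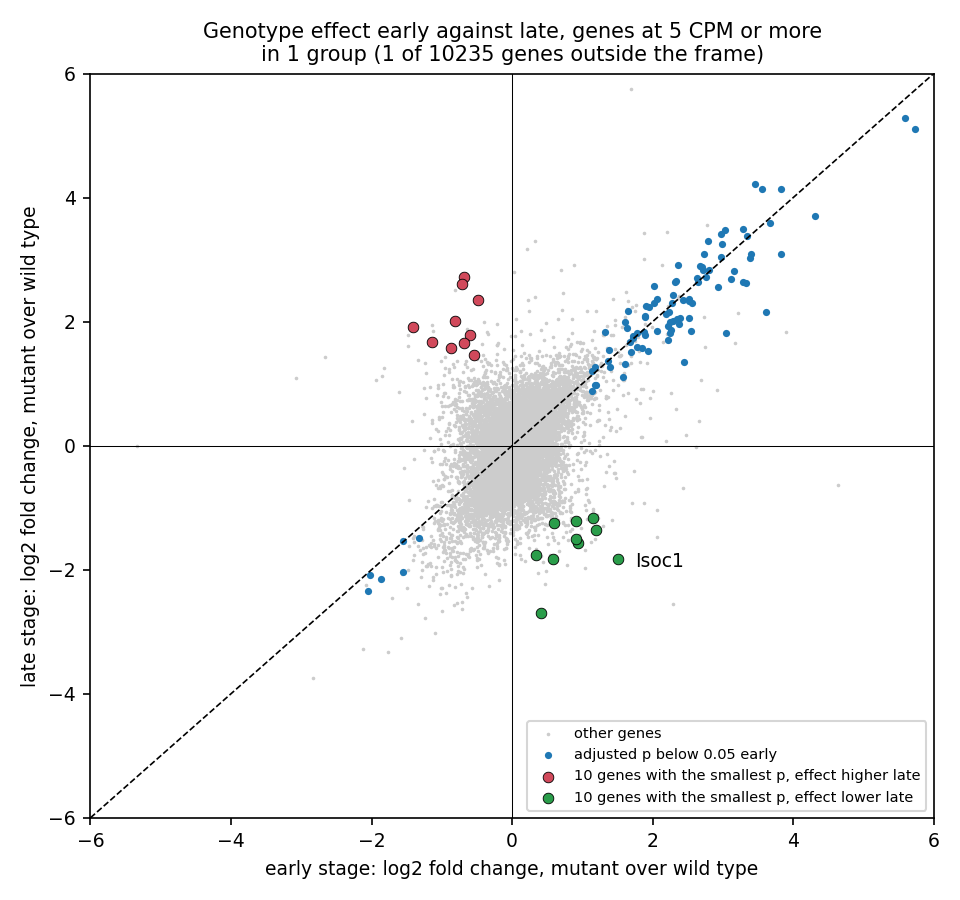
Genotype effect early (horizontal axis) against late (vertical axis), both as log2 fold change of mutant over wild type, for 10235 genes of at least 5 CPM in 1 group. The dashed line marks equal effects. Genes called early (blue) lie along the line, while the 20 genes with the smallest interaction p by direction (red and green) lie in the quadrants of opposite signs, and 1 gene lies outside the frame of ±6.

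Isoc1, which encodes a protein with an isochorismatase domain, was higher in mutants early and lower in mutants late. It read 89.4, 77.7 and 82.7 CPM in early wild type and 141, 286 and 283 CPM in early mutant. It read 118, 333 and 314 CPM in late wild type and 77, 63.8 and 74.8 CPM in late mutant. The genotypes did not overlap at either stage, and late wild-type replicate 1 was closer to the late mutant libraries than its 2 fellows were. The log2 fold change was 1.51 ± 0.35 (SE) early (adjusted p = 0.0536) and -1.83 ± 0.35 late (adjusted p = 0.00775). The interaction was -3.33 ± 0.49 (adjusted p = 0.0304). Over 21 alternatives the interaction stayed between -3.6 and -3.1, with adjusted p from 3.05e-10 to 0.135 and 10 below the threshold. It missed the threshold with DESeq2's size factors and with a replicate block. It also missed it without replicate 2 or 3 of early wild type, early mutant or late wild type, and without each late mutant replicate.

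The 20 genes of at least 5 CPM with the smallest interaction p, 10 in each direction, are listed next. Apart from Isoc1 they did not pass the threshold for the interaction. In all 10 higher genes the wild type was lower late than early and the mutant higher, and in all 10 lower genes the reverse held. An adjustment between batches, if one was made, would by itself give such opposite moves. In genes that turned round by like amounts it would also make early mutant and late wild-type levels alike. Of the 10 lower genes 7 had no overlap at either stage, and of the 10 higher genes 1, Cdk6. Over all genes tested, 21.9% had no overlap early and 25.9% had none late, so a lack of overlap at 1 stage is common. At both stages with opposite order the share was 1.11%. All 20 were called late (5.47% of the genes tested were) and none early (0.59%). They were chosen by the interaction, which contains both effects, so these calls describe them and lend no support. Without late wild-type replicate 1, 5 of the 10 higher and all 10 lower genes passed the interaction test.

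The other 9 lower genes had interactions of -3.12 to -1.84, each with an adjusted p of 0.094. Ptgds, the prostaglandin D synthase of the eye and brain and a corneal endothelial marker, read 173, 98.2 and 146 CPM in early wild type and, in early mutant, 283 and 218 CPM in replicates 2 and 3 and more in replicate 1 (group mean 318 ± 122, SD, n = 3). Late, it read 214, 366 and 361 CPM in wild type and 70.7, 173 and 121 CPM in mutant. Its early mutant level resembled the late wild-type one, and neither pair of groups overlapped. The interaction of Ptgds was -2.56 ± 0.50. Nnat, a small membrane protein of the endoplasmic reticulum, read 44.7, 46.9 and 21.5 CPM in early wild type against 71.8, 71.8 and 74.1 CPM in early mutant. Late, Nnat read 82.7, 65.1 and 88 CPM in wild type against 32.1, 18.9 and 28.9 CPM in mutant. The interaction of Nnat was -2.51 ± 0.43, again without overlap at either stage. Pptc7, a mitochondrial phosphatase, Hebp1, a heme-binding protein, Rnf145, a ubiquitin ligase of the endoplasmic reticulum membrane, and Alg2, a mannosyltransferase of N-glycan synthesis, turned round in the same way with no overlap. Their interactions were -2.42, -2.32, -2.12 and -1.84. The secreted factor Metrnl (-2.41) turned round with overlap early. Nrtn, a ligand of the GDNF family, and Mpnd (-2.10) grew. Nrtn read 28.1, 23.8 and 16.7 CPM in late wild type against 3.64, 3.33 and 3.53 CPM in late mutant, with a late log2 fold change of -2.71 and an interaction of -3.12.

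The 10 higher genes had interactions of 2.01 to 3.40 with adjusted p of 0.094 to 0.118. Nav2, a neuron navigator protein, read 3.11, 8.79 and 2.81 CPM in early wild type and 2.70, 3.31 and 3.06 CPM in early mutant. Late, Nav2 read 2.79, 2.85 and 0.932 CPM in wild type and 16.7, 16.3 and 10.3 CPM in mutant. The late mutant libraries stood above all the others, and the interaction was 3.40 ± 0.66. Lamb1, a laminin chain of basement membranes, read 9.36, 7.65 and 15.3 CPM in early wild type and 7.70, 6.01 and 3.90 CPM in early mutant. Late, Lamb1 read 4.56, 5.46 and 4.16 CPM in wild type and 13.9, 15.6 and 12.8 CPM in mutant, and its interaction was 2.45 ± 0.48. Its groups overlapped early by a narrow margin (7.65 against 7.70 CPM) and were apart late. The cell cycle kinase Cdk6 (2.01) and Usp37, a deubiquitinase that acts in the cell cycle (2.37), turned round. So did Skil, a repressor of TGF-beta signalling (2.34), the NF-kappaB subunit Nfkb2 (2.82) and the microtubule-binding kinase Dclk1 (3.33). Cd44, the hyaluronan receptor, grew (2.83), with 7.98, 7.62 and 10.6 CPM in late mutant against 1.90, 0.923 and 2.29 CPM in late wild type. The other two, Cryba1 and Cryaa, are lens crystallins.

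**Figure D3:**
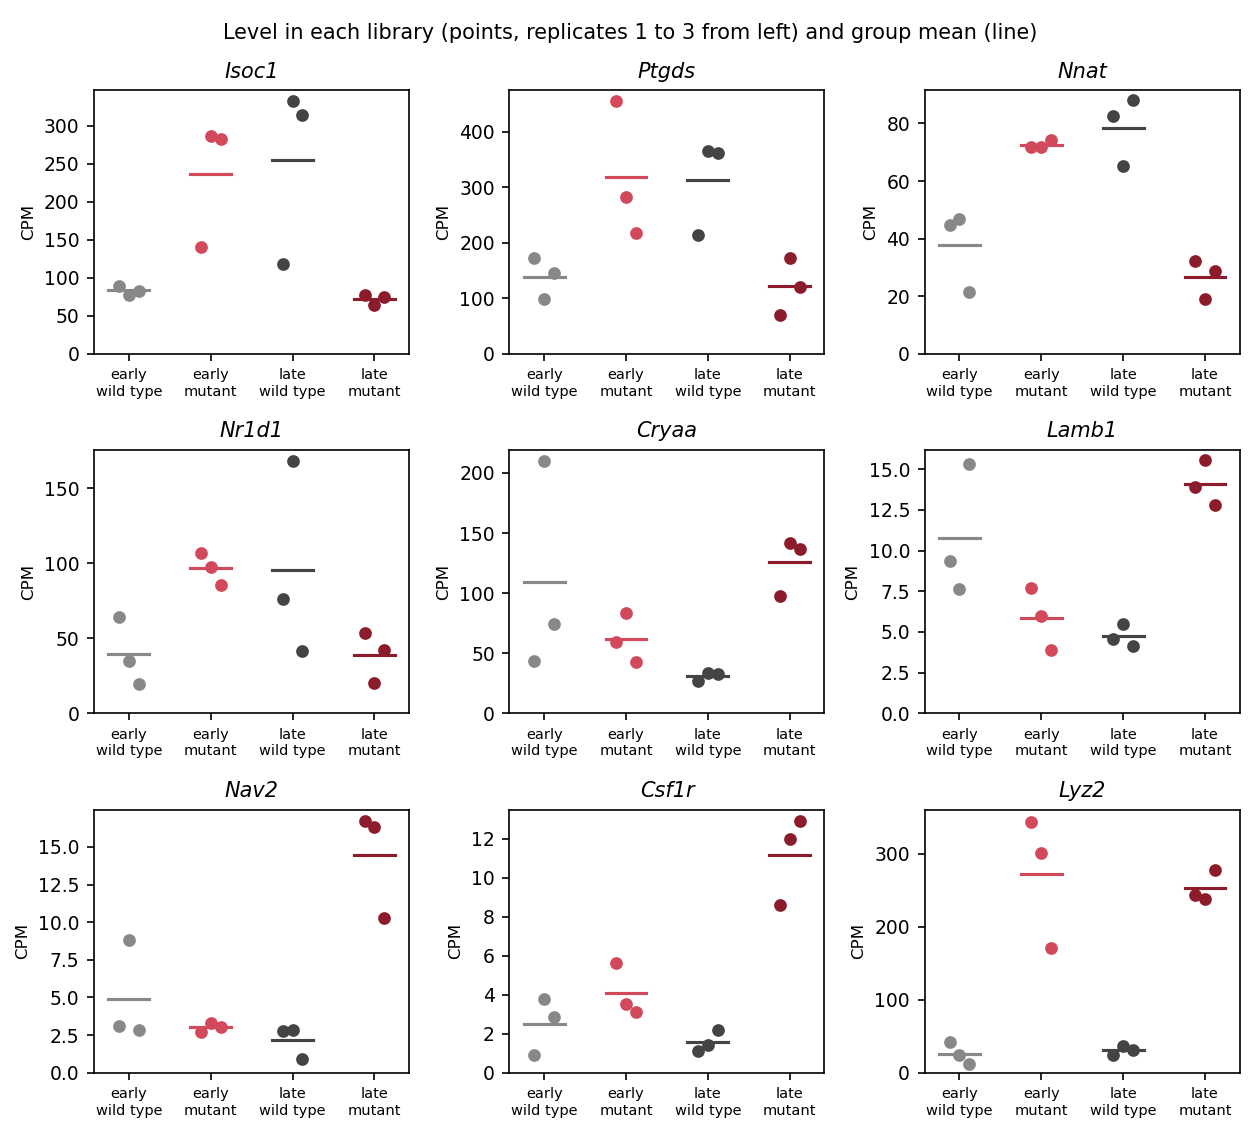
Level in CPM (vertical axis, from 0, a separate scale per gene) of 9 genes in each of the 12 libraries (points, replicates 1 to 3 from left) by group (horizontal axis), with group means as lines. Isoc1, Ptgds, Nnat and Nr1d1 have high early mutant and late wild-type means, Cryaa, Lamb1, Nav2 and Csf1r are highest in late mutant or in early wild type and late mutant, and Lyz2 is high in mutants at both stages.

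Most lens genes had lower levels in mutants early and higher ones late, by point estimates. Crystallins are the bulk proteins of the lens, which lies behind the cornea in the same eye. The median log2 fold change of the 18 lens genes tested of 20 was -1.38 early and 1.42 late, with a median interaction of 2.98 (0.03 over all genes tested), and 12 of the 18 turned round. With the 3 genes that had every library of a group at 0 set to the level of 3 counts per library, the median interaction was 2.95. None of the 18 passed the interaction test (1, Cryba1, without late wild-type replicate 1, adjusted p = 0.0487), and 10 had an unadjusted p under 0.05 with a higher effect late (6.12% of all genes did). Cryaa read 43.2, 210 and 74 CPM in early wild type and 59.6, 83.5 and 42.8 CPM in early mutant. Late, Cryaa read 27.2, 33.5 and 32.9 CPM in wild type and 97.6, 142 and 137 CPM in mutant. The early groups of Cryaa overlapped, the late ones did not, and its interaction was 2.82 ± 0.59. Cryba1 had 3.33 ± 0.66, Cryba2 2.97 and Crybb2, at 101.7 CPM on average in early wild type and 115.0 in late mutant, 3.09. Crygc was at 0 in all late wild-type libraries and in late mutant replicate 1, at 8.24 and 4.99 CPM in the other late mutant libraries and at 13.8 CPM in early wild-type replicate 2. Crygs did not follow, with -1.06 early and -1.37 late.

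The summed lens level was 105.6 to 189.6 CPM in late wild type and 258.5 to 409.7 in late mutant, without overlap. Early, it was 116.6 to 221.9 CPM in mutant and 154.3 to 715.9 in wild type. Between 0 and 8 of the 20 lens genes had no count in a library. Without early wild-type replicate 2 the median interaction fell to 1.95, and that of Cryaa to 2.00. The late comparison does not contain that library. Crystallin genes are similar in sequence, so reads may be split between them. How much lens tissue each library carried was not tested.

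**Figure D4:**
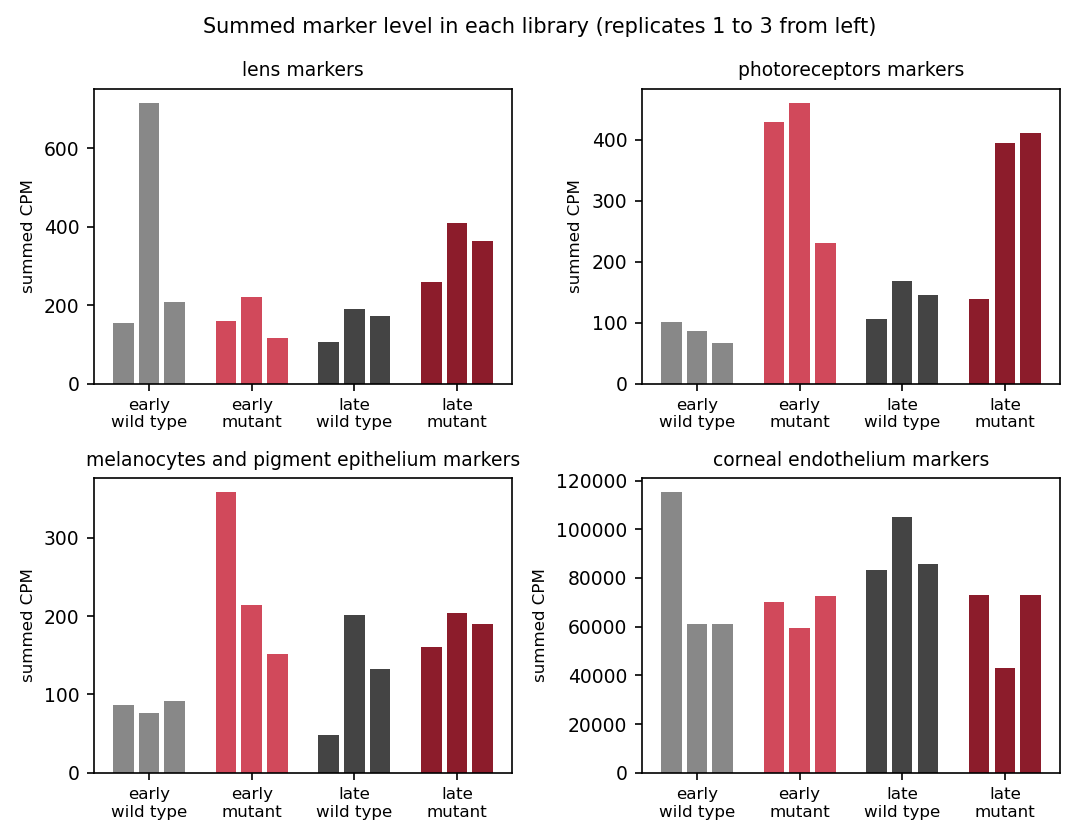
Summed CPM (vertical axes, from 0) of 4 marker lists in each library (bars, replicates 1 to 3 from left) by group (horizontal axis). Lens markers are highest in early wild-type replicate 2 (715.9 CPM) and separate the genotypes late, and photoreceptor and pigment cell markers separate them early. The corneal endothelium sum, which follows its most abundant members, overlaps early and is lower in mutant than in wild type late.

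Of 19 marker genes of the corneal endothelium itself, 13 had interactions below 0 and 6 above. The list had a median log2 fold change of 0.18 early and -0.59 late and a median interaction of -0.49. The summed level overlapped early, 60921 to 115191 CPM in wild type and 59634 to 72540 in mutant, and not late, 83103 to 104903 against 42829 to 72895. A sum follows its most abundant members and does not stand for all 19. Late, 6 of the 19 had a log2 fold change above 0, Slc4a11 (0.72) and Col8a1 (0.51) among them. The list had 5 members with an unadjusted p under 0.05 and a lower effect late (5.08% of all genes did) and 1 with a higher effect, and no member passed the interaction test. Without late wild-type replicate 1, Ptgds, Nr3c2 and Atp1b1 passed it with a lower effect late, 3 of the 19 (0.686% of the genes tested in that fit did). Late, 4 of the 19 fell (2.71% of all genes did) and 1 rose (2.77%), while early none was called in either direction (0.557% and 0.0334%), with 1575 genes at an unadjusted early p under 0.05. Besides Ptgds, Nr3c2, the mineralocorticoid receptor, read 14.6, 24.5 and 14.3 CPM in early wild type and 32.2, 16 and 48.4 CPM in early mutant. Late, Nr3c2 read 27.1, 45.5 and 50 CPM in wild type and 16.3, 17.4 and 14.5 CPM in mutant, overlapping early and not late, and its interaction was -2.20 ± 0.50. Tfap2b, a transcription factor of the neural crest lineage, had -0.29 early and -1.07 late (late adjusted p = 0.0211). The list median was -0.27 without early wild-type replicate 2, -0.32 without late wild-type replicate 1 and -0.13 without both. Without early wild-type replicate 3 or late mutant replicate 2 it was -0.30.

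Among the ion pump and transport genes of the layer, Atp1b1, a beta subunit of the sodium pump, was lower in late mutants. It read 849, 1010 and 832 CPM in early wild type and 995, 1200 and 1340 CPM in early mutant. Late, Atp1b1 read 993, 1840 and 1520 CPM in wild type and 766, 756 and 697 CPM in mutant. Atp1b1 fell in late mutants (log2 fold change -0.97 ± 0.26, adjusted p = 0.0352), with an interaction of -1.37 ± 0.36 (adjusted p = 0.151). Slc4a11, the endothelial solute carrier altered in a recessive corneal dystrophy, had 0.57 early and 0.72 late, with overlap at both stages and an interaction of 0.15 ± 0.51. Col8a1, the partner chain of Col8a2, had 0.54 early and 0.51 late and an interaction of -0.02 ± 0.45. For Slc4a11 and Col8a1 the sign of the interaction changed under several alternatives. Tcf4, the gene that holds the repeat of the common human dystrophy, differed by -0.02 early and -0.14 late.

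Of 30 pump and transport genes tested of 33, 2 had an unadjusted interaction p under 0.05 with a higher effect late and 5 with a lower one (6.12% and 5.08% of all genes), and none passed. Atp1b1 (adjusted p = 0.025) and Kcnj13 (adjusted p = 0.0147) passed with a lower effect late once late wild-type replicate 1 was left out. Kcnj13, an inward rectifier potassium channel, read 2.36, 1.23 and 1.03 CPM in early wild type and 9.56, 6.53 and 3.22 CPM in early mutant. Late, Kcnj13 read 1.67, 11.7 and 7.03 CPM in wild type and 2.44, 1.90 and 3.01 CPM in mutant. It turned round, with an interaction of -3.54 ± 0.80 (adjusted p = 0.114) and overlap late through wild-type replicate 1. Ano1, a calcium-activated chloride channel, and Car12, a membrane carbonic anhydrase, rose late and grew. Ano1 read 0.262, 0.321 and 0.311 CPM in late wild type and 4.23, 4.64 and 4.86 CPM in late mutant, with an interaction of 3.64 ± 0.89. Car12 had an interaction of 1.54 ± 0.52.

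Genes of the circadian clock included several with high early mutant and late wild-type levels. The clock is a feedback loop in which activators such as CLOCK and BMAL1 drive their own repressors and output factors over the day. The time of day at which tissue was taken was not stated, and it cannot be told apart from the groups. The 20 clock genes tested of 21 had a median log2 fold change of 0.03 early and -0.82 late and a median interaction of -0.63. None passed the interaction test (Usp2 alone did without late wild-type replicate 1, adjusted p = 0.041). At an unadjusted p under 0.05, 6 had a lower effect late (5.08% of all genes did) and none a higher one. Late, 3 fell (2.71% of all genes) and 1 rose (2.77%). Nr1d1, the repressor REV-ERB alpha, read 63.9, 35 and 19.2 CPM in early wild type and 107, 97.2 and 85.5 CPM in early mutant. Late, Nr1d1 read 75.9, 168 and 41.6 CPM in wild type and 53.4, 20.4 and 42.2 CPM in mutant, with overlap. Its interaction was -2.60 ± 0.68 (adjusted p = 0.154). Dbp, an output transcription factor that binds the D-box, had -3.01 ± 0.80, and the deubiquitinase Usp2, a clock output, -2.71 ± 0.57 (adjusted p = 0.094). Per3, a period repressor, read 112, 271 and 133 CPM in late wild type and 24.5, 32.9 and 42 CPM in late mutant, and fell late (-2.38 ± 0.38, adjusted p = 0.00218). It had -0.65 early and an interaction of -1.72 ± 0.51, so it grew. The activator Bmal1 had an interaction of 1.01 and Npas2 of 1.84, opposite in sign to Nr1d1, Dbp and Per3. The list median was -0.38 without late wild-type replicate 1 and -0.27 without both libraries that stood apart.

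Of the 20 clock genes 15 had interactions below 0 and 5 above, and their promoter windows were searched for 2 motifs. They are the E-box, CACGTG, which reads the same on both strands and is bound by the activators, and the D-box, TTATGTAA, on either strand, bound by DBP and its relatives. The windows are the 250 bases before a transcript start, from RefSeq on GRCm38.p6, another build than that of the counts, and 16 of the 20 clock genes had at least 1. Those 16 genes have 20 windows, of which 6 held an E-box (6.02% of all 32851 windows did) and 1 a D-box (0.819%). None of the 6 genes with an unadjusted interaction p under 0.05 had an E-box in its window, and 1, Per3, had a D-box, in 2 copies. Ciart, a clock repressor chosen here for its 3 E-boxes, had an interaction of -1.75 ± 0.87. Both windows are shown on the strand of the gene with motif matches in capitals, Per3 on chromosome 4 from 151044666 to 151044915 (minus strand) and Ciart on chromosome 3 from 95882229 to 95882478 (minus strand). A match is a string in this window, and binding was not measured.
Per3: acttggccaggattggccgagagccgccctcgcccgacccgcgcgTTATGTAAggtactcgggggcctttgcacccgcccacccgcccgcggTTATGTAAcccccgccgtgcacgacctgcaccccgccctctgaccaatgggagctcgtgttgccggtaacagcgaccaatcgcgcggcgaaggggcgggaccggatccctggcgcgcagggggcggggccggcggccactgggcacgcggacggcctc
Ciart: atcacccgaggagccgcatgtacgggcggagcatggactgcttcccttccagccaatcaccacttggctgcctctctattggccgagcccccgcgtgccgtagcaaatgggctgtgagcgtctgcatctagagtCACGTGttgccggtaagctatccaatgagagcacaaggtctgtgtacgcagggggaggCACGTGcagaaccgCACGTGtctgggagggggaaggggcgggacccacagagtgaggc

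**Figure D5:**
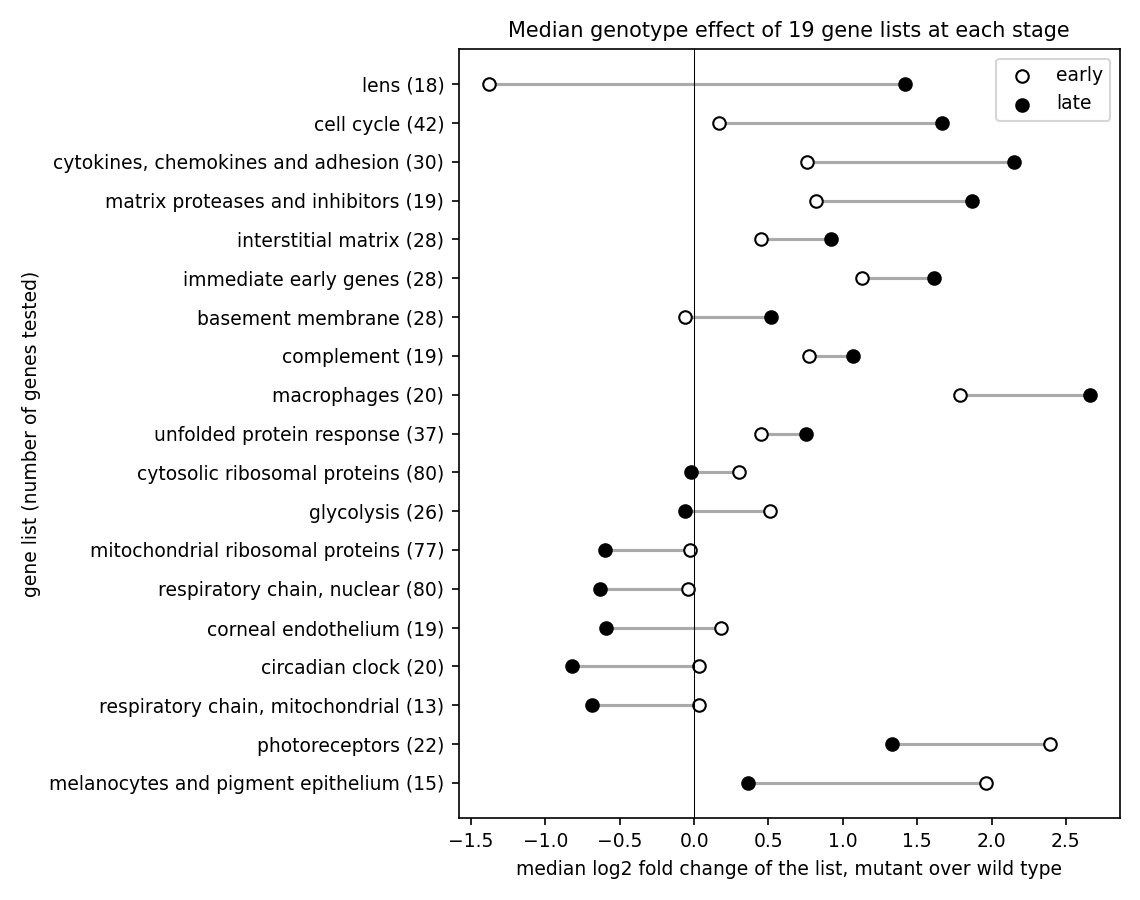
Median log2 fold change of mutant over wild type (horizontal axis) of 19 gene lists (vertical axis, with the number of genes tested), early as open and late as filled circles. Lens genes run from -1.38 to 1.42, cell cycle genes from 0.17 to 1.67, clock genes from 0.03 to -0.82 and melanocyte genes from 1.96 to 0.36.

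Lists of mitochondrial respiration and translation had medians near 0 early and below 0 late. Respiration runs through complexes whose subunits are encoded partly in the nucleus and partly in mitochondrial DNA. The 80 nuclear subunit genes tested of 82 had medians of -0.04 early and -0.63 late and a median interaction of -0.45, with 72 interactions below 0 and 8 above. The 13 mitochondrially encoded genes had medians of 0.03, -0.69 and -0.72, and the 77 mitochondrial ribosomal protein genes -0.03, -0.60 and -0.45, with 71 interactions below 0. No member of the 3 lists passed the interaction test. The numbers with an unadjusted p under 0.05 and a lower effect late were 8, 3 and 6 in that order (5.08% of all genes did, and 7.792% of the mitochondrial ribosomal proteins), and COX1 alone had one with a higher effect. Late, 2 nuclear subunit genes fell (2.71% of all genes did) and early 1, Cox6a2, rose (0.557%). Sdhc, a subunit of complex II, read 150, 149 and 116 CPM in early wild type and 179, 168 and 178 CPM in early mutant. Late, Sdhc read 147, 194 and 166 CPM in wild type and 125, 111 and 107 CPM in mutant, and neither pair of groups overlapped. The interaction of Sdhc was -0.90 ± 0.33 (adjusted p = 0.290). COX3, a complex IV subunit, read 69.1, 72.5 and 69.3 CPM in early wild type and 86.1, 85.6 and 99.2 CPM in early mutant. Late, COX3 read 112, 81.2 and 82.9 CPM in wild type and 42.8, 50.2 and 65.6 CPM in mutant, again without overlap, and its interaction was -1.16 ± 0.35. COX1 went the other way with 0.89 ± 0.41. Mitochondrial transcripts may share reads with nuclear copies, and ND4L, at -4.84, overlaps ND4.

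These lists consist of short genes, with median lengths of 764, 784 and 1515 bases as implied by the deposited FPKM. With the genes of at least 5 CPM split by length into 5 near-equal bins, the shortest bin (105 to 1853 bases, 2047 genes) had a median interaction of -0.41, against -0.10 to -0.03 in the other bins. Its median was 0.12 early and -0.42 late. With an offset for gene length the list medians were -0.25, -0.57 and -0.37. The deviation of a library from the mean of all 12 correlated with gene length (Spearman, across genes). The highest values were 0.45 in late wild-type replicate 1, 0.33 in early wild-type replicate 3 and 0.32 in late mutant replicate 2. The lowest were -0.30 in early mutant replicate 3, -0.27 in early wild-type replicate 1 and -0.25 in early mutant replicate 1. Differences between groups enter this deviation too. What length contributes to these medians was not tested beyond the offset. Without early wild-type replicate 2 the medians of the nuclear subunits and of the mitochondrial ribosomal proteins were -0.22 and -0.19. Without late wild-type replicate 3 they were -0.26 and -0.29, and without early wild-type replicate 1 the second was -0.68. The 80 cytosolic ribosomal protein genes tested of 82 had medians of 0.30 early and -0.02 late, with 43 fading and a median interaction of -0.28 (-0.16 with the length offset). Rpl11 and Rps7 had no overlap at either stage and interactions of -0.97 ± 0.33 and -1.01 ± 0.36.

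The 26 glycolytic genes had a median log2 fold change of 0.51 early and -0.06 late, and none passed the early test. Of their interactions 23 were below 0, and 17 genes faded (31.45% of all genes did). At an unadjusted p under 0.05 there were 6, all with a lower effect late (5.08% of all genes). Pfkfb3, which makes the activator of phosphofructokinase, read 21.1, 16.4 and 20 CPM in early wild type and 69.7, 42.8 and 48.5 CPM in early mutant. Late, Pfkfb3 read 9.18, 68.7 and 50.9 CPM in wild type and 22.1, 27.7 and 40.2 CPM in mutant, with overlap and with wild-type replicate 1 lowest. Its interaction was -2.0 ± 0.67. Hk2, the hexokinase of the first step, faded (0.74 early, -0.35 late), and Pdk1, a pyruvate dehydrogenase kinase, turned round (0.52 and -0.56). The late groups of Hk2 and of Pdk1 overlapped. No glycolytic gene passed the interaction test, and 1 rose late (2.77% of all genes did). Pfkfb3 passed it without late wild-type replicate 1 (-2.39, adjusted p = 0.0147). The median interaction of the list was -0.37 with all libraries and -0.19 without late wild-type replicate 1. Leaving out early wild-type replicate 1, early mutant replicate 1 or late wild-type replicate 3 gave -0.60, -0.24 and -0.56.

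Antioxidant genes had a median interaction of -0.09 (0.09 without late wild-type replicate 1). Of 35, 7 had an unadjusted p under 0.05 and a lower effect late (5.08% of all genes did). Gstm1, a glutathione transferase, read 1650, 1590 and 1310 CPM in early wild type and 1360, 1600 and 1750 CPM in early mutant. Late, Gstm1 read 1540, 2240 and 2240 CPM in wild type and 944, 778 and 900 CPM in mutant, and it fell (-1.20 ± 0.24, adjusted p = 0.0102). Its early groups overlapped and its interaction was -1.25 ± 0.34 (adjusted p = 0.156, and 0.0402 without late wild-type replicate 1). Gsta4, another transferase, and the peroxiredoxin Prdx5 had -1.12 and -0.98. Glul, glutamine synthetase, which stood in the list of retinal neuron and glia genes, read 713, 2020 and 1790 CPM in late wild type and 389, 375 and 347 CPM in late mutant. It overlapped early, fell late (-2.03 ± 0.42, adjusted p = 0.0110) and had an interaction of -2.51 ± 0.58 (adjusted p = 0.116, and 0.0227 without late wild-type replicate 1).

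Of 42 cell cycle genes tested of 44, 26 grew, 10 turned round and 6 faded (57.33%, 11.22% and 31.45% of all genes did). The share that grew was thus near that of all genes. Their median log2 fold change was 0.17 early and 1.67 late, with a median interaction of 1.49, and 34 interactions were above 0. At an unadjusted p under 0.05, 16 had a higher effect late (6.12% of all genes did) and 2 a lower one (5.08%). None passed the interaction test. Early 2 rose (0.557% of all genes), and late 10 rose (2.77%) and 1 fell (2.71%). Top2a, the topoisomerase of dividing cells, read 0.150, 1.93 and 4.25 CPM in early wild type and 0.601, 0.246 and 0.278 CPM in early mutant. Late, Top2a read 0.0328, 0.401 and 0 CPM in wild type and 3.58, 3.36 and 2.62 CPM in mutant, without overlap. Rrm2, a ribonucleotide reductase subunit, was at 0 in all late wild-type libraries and at 3.99, 3.21 and 2.75 CPM in late mutant. Bub1b, a spindle checkpoint kinase, turned round. Under the filter of 5 CPM in 3 libraries the list median was 0.20. Without early wild-type replicate 2 the median was 0.92. The summed level of the list was 450.7 to 529 CPM in early wild type and 687.5 to 885 CPM in early mutant. Late, the sum was 441.9 to 543.1 CPM in wild type and 697.3 to 910.5 CPM in mutant. It was thus higher in mutants without overlap at both stages, by a like margin, and did not grow as the median did.

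Some basement membrane genes rose in late mutants, 6 of 28 (2.77% of all genes did). The 28 genes had medians of -0.06 early and 0.52 late, with 23 interactions above 0. At an unadjusted p under 0.05 there were 6, all with a higher effect late (6.12% of all genes), and none passed the interaction test. Late none fell (2.71% of all genes did), and early none was called (0.59%). The summed level of the list was higher in mutants without overlap at both stages, so it did not start level as the median did. It was 13340 to 14833 CPM in early wild type and 15726 to 22358 in early mutant. Late, the sum was 9298 to 13433 CPM in wild type and 17439 to 22699 in mutant. Without late wild-type replicate 1 the median interaction was 0.57 in place of 0.34 and 3 of the 28 passed the interaction test (0.348% of the genes tested in that fit had a higher effect). Col4a3, a chain of the collagen IV network of Descemet membrane, read 1280, 678 and 630 CPM in early wild type and 513, 483 and 624 CPM in early mutant. Late, Col4a3 read 1070, 435 and 240 CPM in wild type and 1840, 1250 and 1270 CPM in mutant, and neither pair of groups overlapped. Its interaction was 1.99 ± 0.58 (adjusted p = 0.182), and 2.87 (adjusted p = 0.0137) without late wild-type replicate 1. Lama2, a laminin chain, turned round without overlap (-0.79 early, 1.08 late), and Itga6, a laminin-binding integrin subunit, grew (-0.11 and 0.96). Acta2, the smooth muscle actin of myofibroblasts, read 286, 259 and 179 CPM in early wild type and 147, 182 and 175 CPM in early mutant. Late, Acta2 read 123, 168 and 161 CPM in wild type and 270, 216 and 223 CPM in mutant. It overlapped early and not late, and its interaction was 1.17 ± 0.36 (adjusted p = 0.192). Acta2 came from 2 other lists and not from that of the basement membrane. In the smooth muscle and pericyte list, 8 of 10 genes tested had interactions below 0, with a median of -0.63, so Acta2 went against it. The 28 TGF-beta and mesenchymal transition genes had a median interaction of 0.18, with 16 above 0 and 12 below.

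Of 19 matrix protease and inhibitor genes tested of 21, 13 grew, 4 faded and 2 turned round, a share of growing genes near that of all genes of at least 5 CPM. They had medians of 0.82 early and 1.87 late. With a higher effect late, 5 had an unadjusted interaction p under 0.05 (6.12% of all genes did), and none passed. Early 3 rose (0.557% of all genes), and late 9 rose (2.77%) and 1 fell (2.71%). Mmp14, a membrane-bound metalloproteinase, read 42.6, 45.7 and 37.1 CPM in early wild type and 78.1, 51.4 and 52.7 CPM in early mutant. Late, Mmp14 read 29.4, 22.3 and 20.3 CPM in wild type and 76.6, 54.5 and 65.5 CPM in mutant, and it rose (1.45 ± 0.27, adjusted p = 0.00641). It did not overlap at either stage, and its interaction was 0.91 ± 0.37. The aggrecanase Adamts5 rose late (1.84) after -0.36 early. Lox, a crosslinking enzyme of collagen and elastin from a separate list of interstitial matrix genes, rose late (1.71) after 0.46 early. Leaving out late wild-type replicate 1 or early mutant replicate 1 gave a median interaction of 1.13 or 1.12 for the protease and inhibitor list in place of 0.67.

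Of 20 macrophage genes tested of 21, 8 rose in early mutants (0.557% of all genes did) and 15 in late mutants (2.77%). Macrophages are resident immune cells, and Csf1r, Adgre1, Itgam and Ptprc are among their surface markers or shared with other leukocytes. By point estimates 9 grew, 8 faded and 3 turned round. With a higher effect late, 5 had an unadjusted interaction p under 0.05 (6.12% of all genes did), and none passed. The median was 1.79 early and 2.66 late. The summed level of the 21 genes did not follow the calls and overlapped at both stages. It was 36658.5 to 43514.3 CPM in early wild type and 39535.8 to 52085.2 in early mutant. Late, the sum was 31210.8 to 52517.4 CPM in wild type and 35837.9 to 38182.4 in mutant. Csf1r read 0.936, 3.78 and 2.86 CPM in early wild type and 5.63, 3.52 and 3.09 CPM in early mutant. Late, Csf1r read 1.11, 1.40 and 2.18 CPM in wild type and 8.60, 12 and 12.9 CPM in mutant, and its interaction was 2.14 ± 0.64 (adjusted p = 0.189). Its early groups overlapped and its late groups did not. Adgre1 had 0.76 early and 2.99 late, and Itgam -1.18 and 3.31. Lyz2 and Ctss, named after their values were seen, had like effects at both stages. Lyz2, lysozyme, read 42.4, 24.2 and 11.6 CPM in early wild type and 344, 301 and 171 CPM in early mutant. Late, Lyz2 read 24.1, 37.3 and 31.6 CPM in wild type and 243, 238 and 278 CPM in mutant. It rose at both stages (3.39 ± 0.40 and 3.03 ± 0.39), with an interaction of -0.36 ± 0.51, and so did Ctss, a lysosomal protease of antigen presentation (3.83 and 3.09, interaction -0.74 ± 0.52). The sign of the list's median interaction, 0.19, changed to -0.04 without early wild-type replicate 2 and -0.17 without early mutant replicate 3.

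Cytokine and chemokine genes were sparse. The 30 tested of 36 had medians of 0.76 early and 2.15 late. Of them 5 had an unadjusted interaction p under 0.05, all with a higher effect late (6.12% of all genes did). Ccl9, a macrophage chemokine, was at 0 in all late wild-type libraries and at 2.13, 2.11 and 2.56 CPM in late mutant, against 0 to 1.10 CPM in the early libraries. The median interaction of 0.84 was 0.32 without early wild-type replicate 2, 0.40 without early wild-type replicate 3 and 0.44 without early mutant replicate 3. Marker sums of neutrophils (0.6 to 10.4 CPM) and of T and NK cells (2.2 to 10.7 CPM) were low in every library.

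Most photoreceptor and pigment cell markers faded, by point estimates. Rods and cones form the retina's outer layer, and pigment cells line the iris and retina, all outside the cornea. Of 22 photoreceptor genes, 18 faded (31.45% of all genes did). Their median was 2.39 early and 1.33 late, with a median interaction of -1.16. Their summed level was 66.7 to 100.5 CPM in early wild type and 230.1 to 460.7 in early mutant. Late, it was 105.2 to 168.6 CPM in wild type and 138.2, 395.2 and 411.5 CPM in the 3 mutant replicates, with overlap through late mutant replicate 1. No member passed the interaction test, and 2 had an unadjusted p under 0.05 with a lower effect late (5.08% of all genes did). Pde6g, a subunit of the rod phosphodiesterase, read 5.76, 5.71 and 4.10 CPM in early wild type and 50.1, 46.1 and 20.8 CPM in early mutant. Late, Pde6g read 4.16, 12.2 and 31 CPM in wild type and 8.29, 38.7 and 40.9 CPM in mutant, with overlap, and its interaction was -2.02 ± 0.94. The median without late mutant replicate 1 was -0.74. Of 15 melanocyte and pigment epithelium genes tested of 16, 10 faded, with medians of 1.96 early, 0.36 late and -1.20 for the interaction, which was -0.58 without late wild-type replicate 2. Their summed level was 76.2 to 91.7 CPM in early wild type and 151.8 to 358.2 in early mutant, and 48.1 to 201.7 and 160.4 to 203.7 CPM late. Mlana, a melanosome protein, read 1.31 CPM in late wild-type replicate 1 and 27.2 and 24 CPM in the other two. Without replicate 1 Mlana passed the interaction test (-3.58, adjusted p = 0.0147). How much retina or pigmented tissue each library carried, and its part in other results, was not tested.

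Genes called early kept their direction late. The early and late contrasts use different libraries but come from 1 fit with shared scaling and dispersion, so the calls are not independent. All 106 genes called early had the same sign late, and 102 of them were also called late, against 10633 of 17965 genes of the same sign over all genes tested. The median effect of the 106 was 2.38 early and 2.27 late, and the median interaction was -0.12. Of the 106, 3 had an unadjusted interaction p under 0.05 (2.83%, against 11.2% of all genes) and none passed, while 59 faded and 47 grew. Those called early and not late included Cox6a2 and the photoreceptor genes Pde6b and Prph2. Pde6b had 3.62 early and 2.15 late, and Prph2 2.45 and 1.34. Cox6a2, a muscle form of a complex IV subunit, was at 0 in all early wild-type libraries and at 2.70, 1.64 and 1.33 CPM in early mutant. Of the 881 genes called late and not early, 766 grew, 101 turned round and 14 faded, and 646 had the same sign at both stages. Among these 881 Isoc1 alone passed the interaction test, so for the rest a call late and none early was not a tested difference. Across the 10235 genes of at least 5 CPM the early and late effects correlated with a Pearson coefficient of 0.49 and a Spearman coefficient of 0.40, as a description over genes that share libraries within each stage.

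Of 37 unfolded protein response genes tested of 38, 31 grew, 5 faded and 1 turned round (57.33%, 31.45% and 11.22% of all genes did). Of their interactions 29 were above 0 and 8 below. Hspa5, Egr1, Hmox1 and Ccnd1 were chosen after their values were seen, for like effects at both stages. Hspa5, the chaperone BiP of the endoplasmic reticulum, read 235, 233 and 277 CPM in early wild type and 584, 519 and 543 CPM in early mutant. Late, Hspa5 read 195, 258 and 220 CPM in wild type and 565, 428 and 550 CPM in mutant. It rose by 1.14 ± 0.24 early and 1.20 ± 0.24 late on the log2 scale, and the interaction was 0.05 ± 0.33. Egr1, an immediate early transcription factor, had 3.40 early and 3.09 late, Hmox1, heme oxygenase, 1.91 and 2.25, and Ccnd1, a cyclin of G1, 3.45 and 4.22. All rose at both stages without overlap, and their interactions lay between -0.31 and 0.77. An interval of 1 standard error around the interaction of Ccnd1 (0.77 ± 0.75) is wide, so a moderate change was not detectable there. The unfolded protein response list had medians of 0.45 early and 0.75 late. Of its members 2 rose early (0.557% of all genes did) and 11 late (2.77%). An unadjusted interaction p under 0.05 with a higher effect late was found for 3 (6.12% of all genes). Ssr1, of the translocon, and the chaperone Canx were 2 of those, with -0.39 early and 1.39 late, and -0.40 early and 0.75 late. Canx passed the interaction test without late wild-type replicate 1 (1.54, adjusted p = 0.0475). Of 27 integrated stress response genes, 3 rose early and 8 late and 1 fell late (2.71% of all genes fell late), with a median interaction of 0.20. Cebpg, a partner of ATF4, fell late (-1.16) after 0.30 early, and the amino acid transporter Slc7a5 turned round (0.68 and -0.66). Late, Slc7a5 read 151, 57.7 and 57.2 CPM in wild type and 51.4, 77.3 and 40.1 CPM in mutant, with overlap. Its interaction was -1.33 with all libraries and -0.62 without late wild-type replicate 1. The 19 complement genes tested of 22 had medians of 0.77 and 1.07, with 4 rising early and 11 late. The 28 immediate early genes tested of 30 had 1.13 and 1.61, with 5 rising early and 11 late. Over all genes tested 100 rose early (0.557%) and 497 late (2.77%), so calls were more numerous late there too.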

How the data were processed

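TRIzol RNA was made into strand-keeping libraries, per the labels' protocols. Read counts per gene are as the authors deposited them. Tools named in the submitters' processing notes are HTSeq, HISAT2, fastp and DESeq2, with the build GRCm39. The annotation and the strand setting used in counting, and any adjustment for batches, are not stated there or in the labels. Overlapping and antisense genes are therefore uncertain. The authors also deposited FPKM, used only for the gene length it implies, and their own comparisons, which were not used. 

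Counts were fitted with edgeR 4.0.16 (R 4.3.3) over all 12 libraries in 4 groups, with TMM scaling, filterByExpr (14796 genes removed, 17965 tested) and robust quasi-likelihood F tests (8 residual degrees of freedom). The genotype effect was tested early, late and as their difference, with Benjamini-Hochberg adjustment over all genes tested and a threshold of 0.05. The biological coefficient of variation was 0.464. The script was tested on simulated data. At these depths 3 counts were 0.0773 to 0.132 CPM.

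Genes named were up to 10 per direction among those past the interaction threshold, filled where fewer passed by the smallest unadjusted p, with a proper symbol and at least 5 CPM in the highest group. To these were added a panel (Col8a2, Col8a1, Slc4a11, Atp1b1, Tcf4) and up to 4 members per list with the smallest interaction p. Others were named after their values were seen. Some results are not reported here. The gene lists and members were chosen with earlier results of these data known. The pattern for the 13 mitochondrially encoded genes was set after their symbols in the file were read. Class counts and list medians carry no test.

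Replicate variance was 48.1 to 237 times the sampling noise, so no libraries were copies. Same-numbered libraries deviated from their groups with correlations of -0.25 to 0.11, and the numbers were therefore treated as names. Alternatives were scaling by DESeq2's size factors, no filter, a filter of 5 CPM in 3 libraries, DESeq2 1.42.0's Wald test, limma-voom (limma 3.58.1), a replicate block, protein-coding genes alone and leaving out each library. Leaving out 2 libraries together and a gene length offset were added after seeing the data.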

Additional observations from a re-analysis of the deposited data

Results flagged for a closer look

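The genotype effect of Isoc1 differed between early and late stages by a test of the difference itself, with an interaction of -3.33 on the log2 scale (edgeR's quasi-likelihood test, adjusted p = 0.0304, 3 libraries per group). The effect was 1.51 early and -1.83 late. All 3 early mutant libraries were above all 3 early wild-type libraries, and all 3 late mutant libraries were below all 3 late wild-type libraries.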

How the results depend on the processing

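The interaction count was 1 with all libraries, 1 with protein-coding genes, with the filter of 5 CPM in 3 libraries and with the length offset. It was 0 with DESeq2's size factors, 297 without a filter (151 higher late, 146 lower), 327 with DESeq2's Wald test (198 and 129), 91 with limma-voom (11 and 80) and 86 with both libraries that stood apart left out. Leaving out each library gave 0 to 199. The early count (106) was 361 without a filter and 237 with DESeq2's Wald test, and 51 to 179 with each library left out. It moved by over 1.5 times without early wild-type replicate 1 (68), early mutant replicates 1 (51) and 2 (70) and late wild-type replicate 1 (179). The late count (983) was 1507, 2478 and 1728 without a filter, with DESeq2's Wald test and with limma-voom (33.8% higher, against 50.6%), 4371 with both libraries left out and 229 to 3909 with each library left out. It moved without early mutant replicate 3 (578), late wild-type replicates 1 (3909), 2 (306) and 3 (364) and late mutant replicates 1 (229), 2 (619) and 3 (238). With a replicate block the interaction count was 2, both higher late, and Isoc1 missed the threshold (adjusted p = 0.0527), while the early count was 106 and the late count 456. The numbers did not pair samples. The cause of these changes was not tested. 

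The median interaction over all genes, 0.03, was 0.27 without late wild-type replicate 1, 0.18 without both libraries and 0.55 without a filter. Over 20 or 21 alternatives each, named genes and the main value had the same sign in all but 25 cases, in 6 genes with interactions near 0. Col8a1 gave 0.13 with the stricter filter, 0.21 with limma-voom, 0.10 with the block, 0.61 with both libraries left out and -0.26 to 0.47 leaving out each. Tcf4 gave 0.03, 0.15 and -0.31 to 0.07 under the filter, both left out and each left out. With the length offset Slc4a11 gave -0.02 and Hspa5 -0.10. Leaving out each library gave -0.10 to 0.90 for Slc4a11, -0.04 to 0.22 for Hspa5, -0.16 to 0.60 for Col8a2 and -0.93 to 0.12 for Egr1. With 3 libraries a group and a median standard error of 0.45, small changes of effect were not detectable.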
